A study of Mus musculus with 16 samples.

Results

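Gene expression at day 25 was compared with day 21 of differentiation in GFP-positive cells sorted from mouse retinal organoids, which are retinal tissue grown in suspension culture from pluripotent stem cells. The libraries were chosen by the labelled day alone, and they are 7 of the 16 libraries of the series. Day 25 had 1 library from embryonic stem cells (ESC) and 2 from induced pluripotent stem cells (iPSC), and day 21 had 3 ESC libraries and 1 iPSC library. Every group carried the Nrlp-GFP transgene, in which the promoter of Nrl drives green fluorescent protein, so the sort took cells by the activity of that promoter and not by a stain for mature rods. The ESC clones came from the inner cell mass of mouse blastocysts aged 3.5 days. The iPSC clones were made from fibroblasts of E14.5 embryos with doxycycline-inducible lentiviruses for Oct3/4, Sox2, Klf4 and c-Myc, and the labels do not say which clone gave which library. Both days fell in the same phase of culture, in 20% oxygen and before the medium was replaced at day 26. By the culture description, 500 nM retinoic acid and 1 mM taurine went in at the day 10 medium change, while the list of protocol changes gives retinoic acid from day 14 to day 26. PolyA RNA was sequenced from these cells.

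A rod precursor becomes a rod when the transcription factor NRL, working with CRX and NR2E3, switches on rod genes and holds cone genes down. The cell then builds an outer segment of stacked discs on a modified cilium, fills it with the proteins that turn light into a fall in cyclic GMP, and forms a ribbon synapse. In the mouse retina much of this outer segment and synapse programme is switched on after the cell has stopped dividing.

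The labelled cell type was checked against its markers. All 6 rod markers (Nrl, Nr2e3, Gnat1, Pde6a, Pde6b and Sag) were detected in all 7 libraries. Pde6a ranged over 8.21 to 23.9 CPM at day 25 and 2.08 to 3.29 CPM at day 21. Of the cone opsins Opn1sw was present while Opn1mw was at 0 in all 7 libraries. The cone genes Arr3 (2.03 to 7.81 CPM) and Gnat2 (2.16 to 19.5 CPM) were also detected in all 7 libraries. Detection alone therefore does not set rods apart from cones here. CPM is here a length-scaled estimated count divided by a factor for its library. Of 11 lens markers, 9 were under 1 CPM in every library, and 8 of 13 microglia and blood markers were too. Markers of other retinal cells were mostly not so low. Under 1 CPM in every library were 1 of 17 Müller glia, 2 of 15 amacrine and 4 of 16 bipolar markers. The same held for 1 of 13 fibroblast and mesenchyme markers and for 0 of 19 horizontal and ganglion markers. The rebuilt library totals ran from 5593887 to 13425297 estimated counts.

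Some libraries stood apart within their group. ESC day 21 replicate 3 had a mean level of the 20 rod phototransduction genes of 6.77 on the log2(CPM + 1) scale, against 4.63 to 4.75 in the other day 21 libraries. That value lies among the day 25 libraries, which were at 6.52, 6.02 and 7.47. Neuronal markers of other retinal cells marked out a different pair, iPSC day 25 replicate 1 and ESC day 21 replicate 1. Gap43, a growth cone protein of ganglion cells, was at 1.34 (ESC), 42.55 and 2.38 CPM (iPSC) at day 25, against 105, 9.56 and 0.326 (ESC) and 4.73 CPM (iPSC) at day 21. Stmn2, a microtubule regulator of growing axons, was at 1.49 (ESC), 66.2 and 5.24 CPM (iPSC) at day 25, against 132, 16.6 and 5.72 (ESC) and 8.5 CPM (iPSC) at day 21. Over all 19 horizontal and ganglion cell markers tested, mean log2(CPM + 1) was 1.73 to 3.92 at day 25 and 1.83 to 4.78 at day 21, with iPSC day 25 replicate 1 and ESC day 21 replicate 1 the highest of their days. The 12 fibroblast and mesenchyme markers tested gave the same order, with 2.15 in iPSC day 25 replicate 1 and 2.97 in ESC day 21 replicate 1 against 0.878 to 1.19 in the other 5 libraries. The mean CPM of the Y-linked Ddx3y, Eif2s3y and Uty was 11.5 in iPSC day 25 replicate 1, between the 1.48 and 0.625 CPM of the other iPSC libraries and the 25.6 to 67.8 CPM of the ESC libraries of these 2 days. At day 18 the level did not follow the source, with 42.2 CPM in iPSC replicate 2 and 0.927 CPM in ESC replicate 1. Whether these libraries hold other cells or material of another library was not tested. In sorted bulk RNA, fewer cells of a type and less RNA per cell cannot be told apart.

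**Figure D1:**
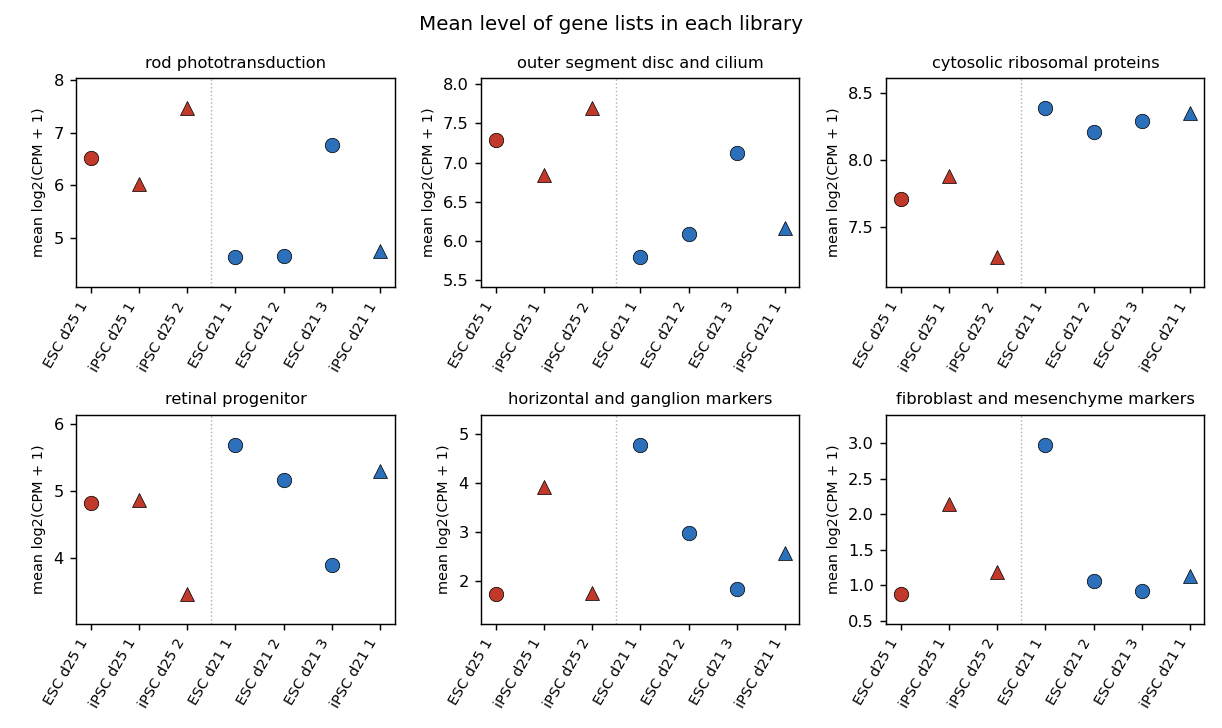
Mean log2(CPM + 1) of the genes of 6 lists in each of the 7 libraries, with day 25 in red left of the dotted line, day 21 in blue right of it, circles for ESC and triangles for iPSC. ESC day 21 replicate 3 sits with day 25 for the rod lists, the ribosomal protein list does not overlap between the days, and iPSC day 25 replicate 1 and ESC day 21 replicate 1 are the highest of their days for horizontal and ganglion markers and for fibroblast markers.

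No single gene passed the test between day 25 and day 21. Most genes of the rod outer segment and phototransduction had estimates above 0, and most genes for cytosolic ribosomal proteins had estimates below 0. Of 14253 genes, limma with the source as a covariate called 0 at an adjusted p under 0.05, and the smallest adjusted p was 0.69. At an unadjusted p under 0.05, 513 genes (3.60%) were higher and 313 (2.20%) were lower. In 599 genes (4.20%) every day 25 library was above every day 21 library, and in 753 (5.28%) every one was below. The log2 fold change was above 0 in 7214 genes (50.6%), and its median over all genes was 0.01. On gene sums of the estimated counts, edgeR's quasi-likelihood test called 0 of 8635 genes (414 had an unadjusted p under 0.05). DESeq2 on the same sums called 34 of 8600, of which 25 were higher and 9 lower. With 4 residual degrees of freedom, the median 95% confidence interval of a gene reached 0.71 log2 units to either side of its estimate. The labels do not say that libraries of a group came from separate cultures, so a p-value here reflects only how far these samples scatter, and that scatter may be technical. Values below are in CPM for single libraries, and each log2 fold change is day 25 over day 21 on the log2(CPM + 1) scale with its standard error (SE). Over the genes named, the adjusted p ran from 0.69 for Pcdh15 to 0.98 for Mki67.

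Leaving out single libraries moved the 826 genes at an unadjusted p under 0.05 in both directions. Without ESC day 21 replicate 3, 1422 genes had an unadjusted p under 0.05, 0 were called, and the smallest adjusted p was 0.0519. Without iPSC day 25 replicate 1 there were 1200 such genes, 0 called, and the smallest adjusted p was 0.0869. Without ESC day 21 replicate 1, the highest library for markers of other cells, there were 716 such genes, 0 called, and the smallest adjusted p was 0.46. The count fell to 541 without ESC day 21 replicate 2 and to 410 without iPSC day 25 replicate 2, again with 0 called. It fell most without ESC day 25, where the day difference rests on the iPSC libraries alone.

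Nrl and Nr2e3, the rod regulators among the photoreceptor transcription factors, were higher at day 25 than in every day 21 library but 1. Of 15 tested, 13 had a log2 fold change above 0, with a median log2 fold change of 0.72 against 0.01 over all genes. An unadjusted p under 0.05 was found in 6, all higher, beside 3.60% higher over all genes. The 6 became 2 without ESC day 21 replicate 2, iPSC day 21 or iPSC day 25 replicate 2, and 3 without ESC day 25. Nrl, the regulator that specifies rods, was at 1396 (ESC), 932 and 1628 CPM (iPSC) at day 25, against 321, 428 and 1915 (ESC) and 368.5 CPM (iPSC) at day 21 (log2 fold change 1.41, SE 0.66, unadjusted p = 0.0631). Nr2e3, the nuclear receptor that represses cone genes in rods, was at 1696 (ESC), 1038 and 1373 CPM (iPSC) at day 25, against 304, 369.8 and 1675 (ESC) and 363 CPM (iPSC) at day 21 (log2 fold change 1.64, SE 0.62, unadjusted p = 0.0288). For both genes ESC day 21 replicate 3 was the highest day 21 library and lay within or above the day 25 values, while the other 3 day 21 libraries were below all of day 25. Without that library the log2 fold change was 1.83 for Nrl and 2.03 for Nr2e3. Crx, which activates genes of rods and cones alike, overlapped between the days, with 1466 to 2312 CPM at day 25 and 1046 to 2701 CPM at day 21 (log2 fold change 0.36, SE 0.49, unadjusted p = 0.482).

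Of the 15 factors, 2 had every day 25 library above every day 21 library, beside 4.20% of all genes. Samd7 was the 1 with the smaller p. Samd7, a subunit of Polycomb repressive complexes in rods, was at 1061 (ESC), 752 and 1123 CPM (iPSC) at day 25, against 416, 358.5 and 659.6 (ESC) and 180.4 CPM (iPSC) at day 21 (log2 fold change 1.74, SE 0.38, unadjusted p = 0.00161). Its relative Samd11 ranged over 723 to 1482 CPM at day 25 and 189 to 932 CPM at day 21 (log2 fold change 2.13, SE 0.57, unadjusted p = 0.00523), with overlap only through ESC day 21 replicate 3. Casz1, a zinc finger factor that acts in rod nuclear organisation, had 193 to 403 CPM at day 25 and 116 to 258 CPM at day 21 (log2 fold change 1.01), and it overlapped through the same library.

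The promoters of 4 photoreceptor genes named here were picked for holding TAATCC, and they are shown because the homeodomain factor CRX binds the letters TAATCC and the basic leucine zipper factors of the MAF family, to which NRL belongs, bind sites that hold TGCTGA. The sequences are from RefSeq (GRCm38.p6), from 250 bases before to 50 after the start, 5′ to 3′ on the gene's strand. Capitals mark TAATCC or its reverse complement GGATTA and TGCTGA or its reverse complement TCAGCA.
Cngb1 (chr8:95306536-95306835, - strand): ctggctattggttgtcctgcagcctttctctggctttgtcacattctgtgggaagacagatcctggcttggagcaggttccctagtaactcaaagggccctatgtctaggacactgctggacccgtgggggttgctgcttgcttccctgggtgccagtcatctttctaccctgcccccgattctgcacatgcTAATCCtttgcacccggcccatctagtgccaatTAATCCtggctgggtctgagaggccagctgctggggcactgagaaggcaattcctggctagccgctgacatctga
Samd7 (chr3:30746043-30746342, + strand): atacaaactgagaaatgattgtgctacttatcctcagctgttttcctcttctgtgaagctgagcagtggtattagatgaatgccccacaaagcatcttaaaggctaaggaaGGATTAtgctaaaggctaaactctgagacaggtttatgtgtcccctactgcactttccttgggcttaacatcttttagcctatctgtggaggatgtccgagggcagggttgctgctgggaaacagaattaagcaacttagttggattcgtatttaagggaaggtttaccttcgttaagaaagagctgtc
Samd11 (chr4:156255293-156255592, - strand): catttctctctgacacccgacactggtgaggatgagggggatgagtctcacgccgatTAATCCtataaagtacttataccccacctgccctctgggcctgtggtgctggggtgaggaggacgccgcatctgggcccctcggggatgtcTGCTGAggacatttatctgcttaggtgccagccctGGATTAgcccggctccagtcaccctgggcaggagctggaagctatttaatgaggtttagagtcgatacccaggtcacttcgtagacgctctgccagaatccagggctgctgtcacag
Gnat2 (chr3:108092816-108093115, + strand): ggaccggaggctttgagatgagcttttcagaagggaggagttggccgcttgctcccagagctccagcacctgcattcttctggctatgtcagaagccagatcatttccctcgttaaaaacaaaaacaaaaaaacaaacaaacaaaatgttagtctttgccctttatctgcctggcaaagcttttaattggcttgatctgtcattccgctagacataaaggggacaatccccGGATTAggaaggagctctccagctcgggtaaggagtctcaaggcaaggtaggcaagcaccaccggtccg
Cngb1 holds 2 copies of TAATCC and Samd11 holds 2, one on each strand. Of 32851 promoters of this length, 7.06% hold TAATCC on either strand and 0.353% hold 2 or more copies, and 19.48% hold TGCTGA. Of the 75 genes named here, 59 matched a RefSeq promoter, 14 of these hold TAATCC and 20 hold TGCTGA. A named gene counted if any of its promoters held the letters, while the percentages are per promoter. Many named genes were also picked as photoreceptor genes, so the counts and percentages are not comparable. The promoters of Nrl, Nr2e3, Pde6b, Prph2, Pcdh15 and Cacna1f do not hold TAATCC in this window. A match is a description of the letters and not a bound site.

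Rod phototransduction genes shared the sign of their estimates. All 20 genes tested of 21 had a log2 fold change above 0, from 0.64 to 3.18 with a median of 1.29, 10 had an unadjusted p under 0.05, and 0 passed the adjusted p. Over all genes, 3.60% were higher at an unadjusted p under 0.05 and 4.20% were above in every day 25 library. Only Gnat1 and Pde6a of this list separated the 7 libraries by day. Gnat1, the alpha subunit of rod transducin, was at 11.5 (ESC), 13.9 and 21.2 CPM (iPSC) at day 25, against 3.15, 5.32 and 6.66 (ESC) and 5.71 CPM (iPSC) at day 21 (log2 fold change 1.25, SE 0.35, unadjusted p = 0.00654). Pde6a, a catalytic subunit of the rod cyclic GMP phosphodiesterase, was at 8.21 (ESC), 9.56 and 23.9 CPM (iPSC) at day 25, against 2.08, 2.25 and 3.29 (ESC) and 3.09 CPM (iPSC) at day 21 (log2 fold change 1.67, SE 0.41, unadjusted p = 0.00307). In both genes iPSC day 25 replicate 2 was the highest of the 7 libraries. Pde6b, the partner catalytic subunit, was at 958 (ESC), 541 and 1246 CPM (iPSC) at day 25, against 118.5, 166 and 854 (ESC) and 249.7 CPM (iPSC) at day 21 (log2 fold change 1.81, SE 0.71, unadjusted p = 0.0323). For Pde6b, ESC day 21 replicate 3 lay above iPSC day 25 replicate 1, and the other 3 day 21 libraries lay below all of day 25.

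Downstream members of the cascade followed the same layout of libraries. Cngb1, the channel subunit that couples cyclic GMP to current in rods and whose promoter is printed above, was at 304 (ESC), 166 and 484 CPM (iPSC) at day 25, against 26.55, 13.25 and 239 (ESC) and 35.1 CPM (iPSC) at day 21 (log2 fold change 2.86, SE 0.95, unadjusted p = 0.0158). Sag, the rod arrestin that shuts off the opsin, had 431.5 to 1154 CPM at day 25 and 126 to 1695 CPM at day 21 (log2 fold change 1.23, SE 0.90, unadjusted p = 0.204), and its highest value of all 7 libraries was in ESC day 21 replicate 3. Gnb5, the G protein subunit of the complex that switches transducin off, had 49.4 to 75.1 CPM at day 25 and 19.9 to 63.45 CPM at day 21 (log2 fold change 1.15, SE 0.40, unadjusted p = 0.0201). Without ESC day 21 replicate 3, 18 of the 20 phototransduction genes had an unadjusted p under 0.05 and the list median was 1.67. For the ESC difference alone 1 of the 20 did, and for the iPSC difference alone 5 did, with the spread taken over all 7 libraries. Leaving out ESC day 21 replicate 2 or iPSC day 25 replicate 2 gave 5 and 6.

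**Figure D2:**
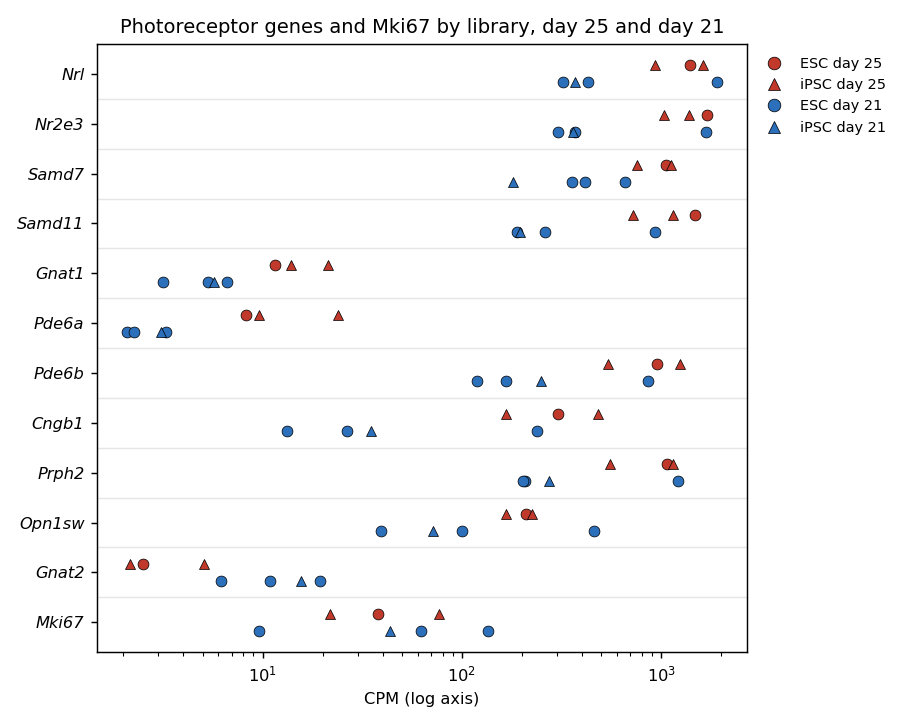
CPM on a log axis in each library for 12 genes, with day 25 in red above day 21 in blue, circles for ESC and triangles for iPSC. Gnat1, Pde6a and Samd7 separate the days upward and Gnat2 downward, while the single high blue circle of Nrl, Nr2e3, Pde6b, Cngb1 and Prph2 is ESC day 21 replicate 3.

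The outer segment and its cilium gave the most genes that separated the days among the photoreceptor lists. Of 38 genes tested, 37 had a log2 fold change above 0, with a median of 0.87. An unadjusted p under 0.05 was found in 18, all higher, beside 3.60% higher over all genes. In 9 every day 25 library was above every day 21 library, beside 4.20% of all genes. The 1 gene of the list below in every library was Rp2, a protein of ciliary membrane trafficking named here after its values were seen (log2 fold change -0.29). Pcdh15, a cadherin of photoreceptor surface processes and of hair cell tip links, had the largest value of the list. It was at 217 (ESC), 232 and 481 CPM (iPSC) at day 25, against 35.7, 18.2 and 64.85 (ESC) and 16.4 CPM (iPSC) at day 21, and the gene lies on chromosome 10, 73099342 to 74649737 in GRCm38 (log2 fold change 3.38, SE 0.54, unadjusted p = 0.000196). The lowest day 25 value was well above the highest day 21 value.

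The next members by p were Tub, Wdr17 and Bbs2. Tub, the tubby protein needed for delivery of proteins to the cilium, was at 345 (ESC), 225 and 437 CPM (iPSC) at day 25, against 101, 96.7 and 173 (ESC) and 107 CPM (iPSC) at day 21 (log2 fold change 1.53, SE 0.32, unadjusted p = 0.00132). Wdr17, a WD repeat protein, was at 42.3 (ESC), 38 and 111 CPM (iPSC) at day 25, against 14.2, 18 and 24.2 (ESC) and 17.7 CPM (iPSC) at day 21 (log2 fold change 1.47, SE 0.41, unadjusted p = 0.00678). Bbs2, a subunit of the BBSome that carries cargo in cilia, had 71.5 to 97 CPM at day 25 and 39.8 to 56.8 CPM at day 21 (log2 fold change 0.77, SE 0.22, unadjusted p = 0.00693). In all of these the lowest day 25 library was above the highest day 21 library. Prph2, the peripherin that shapes disc rims, did not, with 1064 (ESC), 553 and 1144 CPM (iPSC) at day 25, against 206, 202 and 1210 (ESC) and 273 CPM (iPSC) at day 21 (log2 fold change 1.53, SE 0.68, unadjusted p = 0.0543). As with Nrl, its high day 21 library was replicate 3 of ESC. Without that library 26 of the 38 genes had an unadjusted p under 0.05 and the median was 1.08, while for ESC alone and for iPSC alone 5 of the 38 did.

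Visual cycle genes were mixed as a list, with 7 of 13 above 0 and a median of 0.10. At an unadjusted p under 0.05 there were 3, all higher, beside 3.60% higher over all genes. Rdh8, the outer segment retinol dehydrogenase that reduces all-trans retinal, was at 39.9 (ESC), 13.1 and 52.9 CPM (iPSC) at day 25, against 2.51, 1.81 and 21.1 (ESC) and 3.685 CPM (iPSC) at day 21 (log2 fold change 2.67, SE 0.82, unadjusted p = 0.011). Rdh12, the inner segment retinol dehydrogenase, had 37.4 to 122 CPM at day 25 and 10.3 to 76.4 CPM at day 21 (log2 fold change 2.03, SE 0.74, unadjusted p = 0.0245). Abca4, the flippase that clears retinal from discs, was above in every day 25 library, at 988 (ESC), 544 and 1013 CPM (iPSC) at day 25, against 205, 434 and 398 (ESC) and 519 CPM (iPSC) at day 21 (log2 fold change 1.08, SE 0.42, unadjusted p = 0.0328). Rpe65, the isomerase of the pigment epithelium, was under 1 CPM in all 7 libraries. Rdh8 lies head to head with Col5a3 on chromosome 9 (Rdh8 20818503 to 20826117 on the plus strand, Col5a3 20770050 to 20815067 on the minus strand, GRCm38), with 3435 bases between them. Col5a3 is described among the largest differences.

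**Figure D3:**
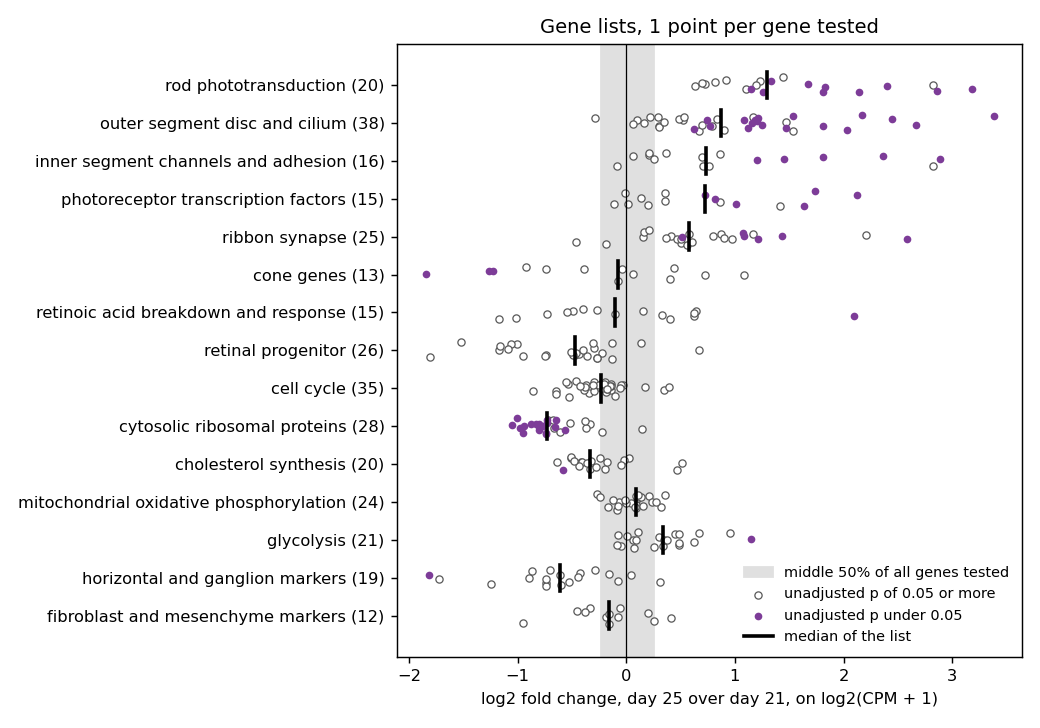
Log2 fold change of day 25 over day 21 on the log2(CPM + 1) scale for each gene tested in 15 lists, with the number of genes in brackets, filled points for an unadjusted p under 0.05, bars for list medians and grey for the middle 50% of all genes. The rod lists lie to the right of the grey band with medians of 1.29 and 0.87, and the ribosomal protein list lies to its left with a median of -0.725.

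Synaptic and inner segment genes had estimates above 0 in most members. Of 25 ribbon synapse genes, 23 had a log2 fold change above 0, and the median was 0.58. An unadjusted p under 0.05 was found in 6, all higher, beside 3.60% higher over all genes. Cacna1f, the pore subunit of the calcium channel at photoreceptor ribbons, was at 72.9 (ESC), 61.1 and 155 CPM (iPSC) at day 25, against 14, 5.105 and 10.5 (ESC) and 19.4 CPM (iPSC) at day 21 (log2 fold change 2.58, SE 0.44, unadjusted p = 0.000339). Its day 25 values were all above day 21, and the log2 fold change was 2.86 between the ESC libraries and 2.27 between the iPSC libraries. Stx3, the syntaxin of ribbon synapses, had 290.4 to 527 CPM at day 25 and 126 to 343 CPM at day 21 (log2 fold change 1.08, SE 0.40, unadjusted p = 0.0262), and Lrit1, a leucine-rich repeat protein of photoreceptor synapses, had 164 to 296 CPM at day 25 and 56.5 to 215 CPM at day 21 (log2 fold change 1.44, SE 0.51, unadjusted p = 0.0209). Both overlapped between the days through ESC day 21 replicate 3, and without it 16 of the 25 synapse genes had an unadjusted p under 0.05. For iPSC alone 1 did and for ESC alone 2 did.

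Of 16 inner segment channel and adhesion genes, 15 were above 0, and the median was 0.73. An unadjusted p under 0.05 was found in 5, all higher, beside 3.60% higher over all genes. The 5 became 1 without iPSC day 21, 2 without ESC day 21 replicate 2, 3 without ESC day 25 or iPSC day 25 replicate 2, and 9 without ESC day 21 replicate 3. Ckmt1, the mitochondrial creatine kinase, was at 29.5 (ESC), 26.4 and 31.8 CPM (iPSC) at day 25, against 10.5, 8.66 and 17.8 (ESC) and 8.44 CPM (iPSC) at day 21 (log2 fold change 1.45, SE 0.32, unadjusted p = 0.00159), and it was the member of this list that separated the days. Kcnj14, an inward rectifier potassium channel, was at 27.9 (ESC), 10.5 and 32.9 CPM (iPSC) at day 25, against 2.52, 2.11 and 28.5 (ESC) and 2.05 CPM (iPSC) at day 21 (log2 fold change 2.37), with ESC day 21 replicate 3 inside the day 25 range.

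Cone genes were split. Of 13 tested of 15, 5 had a log2 fold change above 0 and 8 below, and the median was -0.08. An unadjusted p under 0.05 was found in 3, all lower, beside 2.20% lower over all genes. Gnat2, the alpha subunit of cone transducin, was at 2.52 (ESC), 5.08 and 2.16 CPM (iPSC) at day 25, against 10.85, 19.5 and 6.16 (ESC) and 15.6 CPM (iPSC) at day 21 (log2 fold change -1.84, SE 0.46, unadjusted p = 0.00346). It was lower in all 3 day 25 libraries than in any day 21 library. Cngb3, the cone channel subunit, had 14.1 to 28.6 CPM at day 25 and 28 to 61.8 CPM at day 21 (log2 fold change -1.26, SE 0.38, unadjusted p = 0.0101), and Pde6c, the cone phosphodiesterase, had 19.98 to 68 CPM at day 25 and 65.4 to 151 CPM at day 21 (log2 fold change -1.23, SE 0.47, unadjusted p = 0.0308). Opn1sw, the short-wavelength cone opsin, did not share their direction, with 210.4 (ESC), 167 and 225 CPM (iPSC) at day 25, against 39.05, 100.1 and 459.7 (ESC) and 71.8 CPM (iPSC) at day 21 (log2 fold change 1.08, SE 0.76, unadjusted p = 0.193). The day 25 values of Opn1sw lay inside the spread of day 21, whose highest library was ESC replicate 3. Every other day 21 library was below all of day 25. Arr3, the cone arrestin, overlapped, with 4.37 to 5.82 CPM at day 25 and 2.03 to 7.81 CPM at day 21, and its log2 fold change of -0.08 took the opposite sign within ESC (0.33), without the source covariate (0.19) and over all 16 libraries (0.17).

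Genes of dividing retinal progenitors overlapped between the days. Of 26 progenitor genes, 24 had a log2 fold change below 0 (median -0.47), and of 35 cell cycle genes 32 did (median -0.24), yet 0 in either list had an unadjusted p under 0.05. Single libraries moved these tallies. Without ESC day 21 replicate 1 the cell cycle list had 17 above and 18 below (median -0.02) and the progenitor median was -0.29. Without iPSC day 25 replicate 2 the cell cycle list again had 17 above and 18 below (median -0.02), and the progenitor median was -0.17. Without iPSC day 21 the progenitor median was -0.14, and without ESC day 25 it was -1.01. Mki67, a marker of cycling cells, was at 38.05 (ESC), 77.1 and 21.85 CPM (iPSC) at day 25, against 135, 62.3 and 9.6 (ESC) and 43.45 CPM (iPSC) at day 21 (log2 fold change -0.14, SE 0.88, unadjusted p = 0.874). The highest value of each day was in the library that was also highest for ganglion cell markers, and over all 16 libraries the sign turned (0.20). Top2a, the topoisomerase of dividing cells, had 34.8 to 80.3 CPM at day 25 and 27.55 to 132 CPM at day 21, and Pcna, the clamp of replication forks, had 51.1 to 57.05 CPM at day 25 and 51 to 69.8 CPM at day 21. Insm1, a zinc finger factor of newborn neurons, and Notch1, the receptor that keeps progenitors undifferentiated, were taken from the progenitor list by their CPM. Insm1 ranged over 227.5 to 396 CPM at day 25 and 127.5 to 373 CPM at day 21 (log2 fold change 0.67). Notch1 ranged over 105 to 254 CPM at day 25 and 50.9 to 368 CPM at day 21 (log2 fold change -0.27), and its sign turned with gene sums (0.03) and within ESC (1.08).

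Of 12 genes of cell cycle exit, 6 had a log2 fold change above 0 and 6 below (median -0.10). At an unadjusted p under 0.05, 1 was higher and 2 were lower, beside 3.60% and 2.20% over all genes. Cdkn1c, the p57 inhibitor of cyclin-dependent kinases, was at 54 (ESC), 56.4 and 28.6 CPM (iPSC) at day 25, against 107, 92.2 and 108.5 (ESC) and 93.85 CPM (iPSC) at day 21 (log2 fold change -1.05, SE 0.27, unadjusted p = 0.00409). Cdkn1a, the p21 inhibitor, had 20.5 to 71.8 CPM at day 25 and 72 to 144 CPM at day 21 (log2 fold change -1.22, SE 0.49, unadjusted p = 0.0363). Both were below in every day 25 library, while Rbl2, the p130 pocket protein of resting cells, was above in every one, with 53.4 to 67.2 CPM at day 25 and 41.3 to 48.6 CPM at day 21 (log2 fold change 0.46, SE 0.19, unadjusted p = 0.0444). DESeq2, which called 9 of 8600 genes lower in these same libraries, called Cdkn1c lower (log2 fold change -1.05, adjusted p = 0.0206).

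Retinoic acid genes did not separate the days. Of 15 tested, 7 were above 0 and 8 below, with a median of -0.11. At an unadjusted p under 0.05, 1 was higher, beside 3.60% of all genes. Cyp26b1, an enzyme that breaks down retinoic acid, was that gene, at 361 (ESC), 205 and 101 CPM (iPSC) at day 25, against 318, 47.1 and 277 (ESC) and 15.3 CPM (iPSC) at day 21 (log2 fold change 2.10, SE 0.76, unadjusted p = 0.0239). The day 25 value was the highest of each source, but ESC day 21 replicates 1 and 3 lay above both iPSC day 25 libraries. The log2 fold change was 1.16 between the ESC libraries and 3.15 between the iPSC libraries. Cyp26a1, the related enzyme, was at 2.78 (ESC), 7.49 and 3.59 CPM (iPSC) at day 25, against 19.45, 3.42 and 1.07 (ESC) and 1.405 CPM (iPSC) at day 21 (log2 fold change 0.33, SE 0.84, unadjusted p = 0.704). Its highest value of all was in ESC day 21 replicate 1, and the sign of its fold change turned within ESC (-0.60).

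Genes for cytosolic ribosomal proteins had the most members below day 21 of the lists. Of 28 tested, 27 had a log2 fold change below 0, with a median of -0.725 against 0.01 over all genes. An unadjusted p under 0.05 was found in 18, all lower, beside 2.20% lower over all genes. In 21 every day 25 library was below every day 21 library, beside 5.28% of all genes. The mean log2(CPM + 1) of the list was 7.71, 7.88 and 7.27 in the day 25 libraries. It was 8.39, 8.21, 8.29 and 8.35 in the day 21 libraries, which do not overlap with day 25. Here ESC day 21 replicate 3 stood with its own day. Rps23, a small-subunit protein at the decoding centre, was at 106 (ESC), 135 and 81.3 CPM (iPSC) at day 25, against 235, 207 and 196 (ESC) and 226 CPM (iPSC) at day 21 (log2 fold change -1.05, SE 0.23, unadjusted p = 0.00189). Rps6, the subunit phosphorylated by S6 kinase, had 139 to 251 CPM at day 25 and 338 to 420.5 CPM at day 21 (log2 fold change -0.94, SE 0.27, unadjusted p = 0.00733). Rpl32 had 193 to 350.2 CPM at day 25 and 408 to 499 CPM at day 21 (log2 fold change -0.95) and Rps3 had 300.4 to 494 CPM at day 25 and 573 to 783 CPM at day 21 (log2 fold change -0.98). Ribosomal protein genes have many near-identical pseudogene copies between which the quantification may split reads, so single values are uncertain. Without ESC day 21 replicate 3 the count at an unadjusted p under 0.05 stayed at 18, for ESC alone or iPSC alone it was 2, and without iPSC day 25 replicate 2 it was 8.

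The 12 largest differences upward were taken from 216 genes that were above in every day 25 library, had an unadjusted p under 0.05 and averaged at least 5 CPM, with predicted gene models left out. They were, by size, Pcdh15, Col5a3, Cacna1f, Hcrtr1, Bpifb6, Rnf207, Arid3c, Psd2, Nt5e, Rgs20, Loxl3 and Slc1a1. Since this choice used the fold change and the separation, their values are given as a description. Col5a3, a chain of fibrillar collagen V, was at 174 (ESC), 75.7 and 105 CPM (iPSC) at day 25, against 17.9, 9.92 and 24 (ESC) and 23.6 CPM (iPSC) at day 21 (log2 fold change 2.65, SE 0.41). Its neighbour Rdh8 had a log2 fold change of 2.67. Rnf207, a RING finger ubiquitin ligase, was at 151 (ESC), 54 and 96.55 CPM (iPSC) at day 25, against 16.9, 17.8 and 30.9 (ESC) and 19.8 CPM (iPSC) at day 21 (log2 fold change 2.33, SE 0.35).

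Nt5e, the ecto-nucleotidase CD73 used as a surface marker of rod precursors, was at 78.2 (ESC), 59.75 and 104 CPM (iPSC) at day 25, against 9.81, 13.6 and 31.6 (ESC) and 19.65 CPM (iPSC) at day 21 (log2 fold change 2.08). Psd2, an exchange factor for ARF6, was at 235.5 (ESC), 96.1 and 236 CPM (iPSC) at day 25, against 39.5, 36.4 and 46.5 (ESC) and 48.5 CPM (iPSC) at day 21 (log2 fold change 2.09). Slc1a1, a neuronal glutamate transporter, was at 113 (ESC), 89.5 and 158 CPM (iPSC) at day 25, against 26, 27.5 and 70.2 (ESC) and 23.4 CPM (iPSC) at day 21 (log2 fold change 1.92). The transporter was the one of these 3 with a day 21 value near day 25, in ESC replicate 3. Rgs20, a regulator of G protein signalling, had 20.5 to 33.7 CPM at day 25 and 4.56 to 17.6 CPM at day 21, Hcrtr1, an orexin receptor, had 4.24 to 15.8 CPM at day 25 and 0.475 to 2.47 CPM at day 21, and Loxl3, a lysyl oxidase, had 12.4 to 30.1 CPM at day 25 and 3.88 to 9.62 CPM at day 21. Arid3c, a DNA-binding protein, had 13.3 to 41.85 CPM at day 25 and 1.86 to 6.83 CPM at day 21, and Bpifb6 had 26.6 to 91.8 CPM at day 25 and 6.45 to 15.8 CPM at day 21. DESeq2 on gene sums called 7 of the 12, beside 34 of 8600 genes in all. The 7 were Pcdh15 (adjusted p = 2.12e-05), Col5a3 (2.28e-06), Cacna1f (5.77e-06), Rnf207 (6.81e-06), Psd2 (8.51e-07), Nt5e (0.003) and Slc1a1 (0.0208). Among the cilium genes DESeq2 also called Tub (adjusted p = 0.0208). The 12 were chosen from the same libraries, so these calls are no separate support, and edgeR on the same sums called 0 genes.

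**Figure D4:**
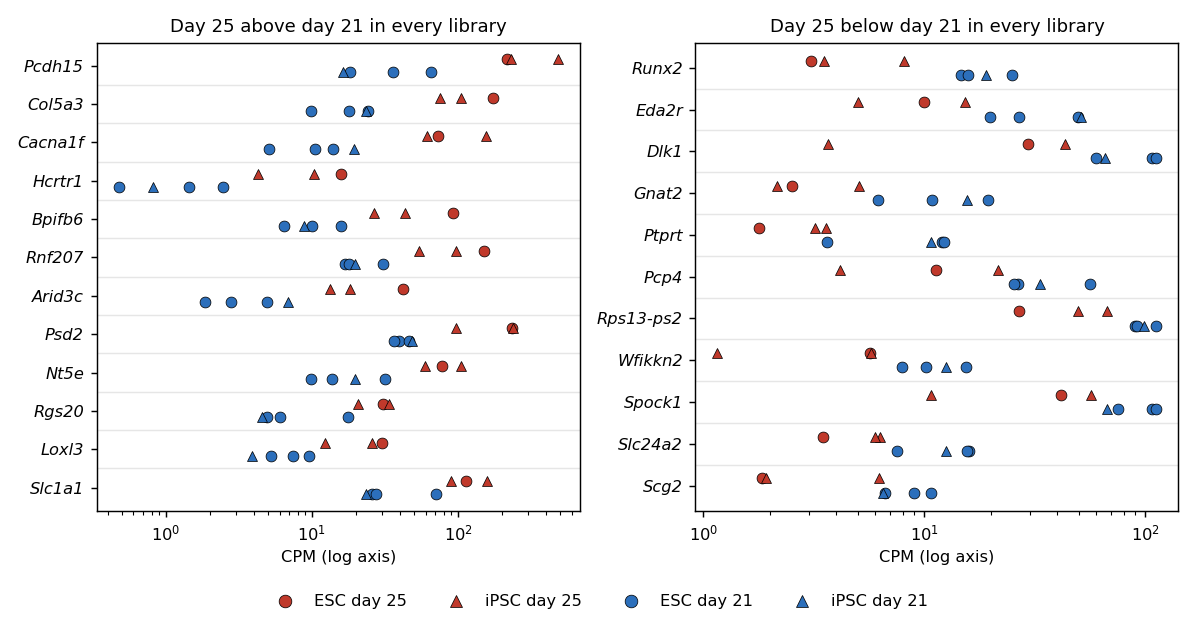
CPM on a log axis in each library for the 12 largest differences upward (left panel) and 11 of the 12 largest downward (right panel), with day 25 in red above day 21 in blue, circles for ESC and triangles for iPSC. No red and blue points overlap for any of the 23 genes, which were chosen for that.

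The 12 largest differences downward came from 196 genes by the same choice, and 11 of them are reported. They were Runx2, Eda2r, Dlk1, Gnat2, Ptprt, Pcp4, Rps13-ps2, Wfikkn2, Spock1, Slc24a2 and Scg2. Runx2, a Runt-domain factor best known from bone, was at 3.06 (ESC), 8.06 and 3.52 CPM (iPSC) at day 25, against 14.6, 25 and 15.8 (ESC) and 19.1 CPM (iPSC) at day 21 (log2 fold change -1.95, SE 0.38). Eda2r, a receptor of the TNF receptor family, was at 9.92 (ESC), 15.3 and 4.99 CPM (iPSC) at day 25, against 26.8, 49.8 and 19.8 (ESC) and 51.1 CPM (iPSC) at day 21 (log2 fold change -1.92). Dlk1, an imprinted gene for a Notch-ligand-like protein, was at 29.6 (ESC), 43.45 and 3.67 CPM (iPSC) at day 25, against 107, 112 and 59.9 (ESC) and 65.5 CPM (iPSC) at day 21 (log2 fold change -1.87). For each of these 3 the highest day 25 library was iPSC replicate 1.

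Slc24a2, the sodium, calcium and potassium exchanger of cones, was at 3.48 (ESC), 6.33 and 5.97 CPM (iPSC) at day 25, against 15.9, 15.5 and 7.49 (ESC) and 12.6 CPM (iPSC) at day 21 (log2 fold change -1.27), in the same direction as Gnat2. Spock1, a testican proteoglycan, had 10.8 to 56.8 CPM at day 25 and 67.4 to 112 CPM at day 21. Ptprt, a receptor tyrosine phosphatase, had 1.79 to 3.59 CPM at day 25 and 3.63 to 12.3 CPM at day 21, with its lowest day 21 value in ESC replicate 3. Pcp4, a calmodulin regulator, had 4.13 to 21.6 CPM at day 25 and 25.5 to 56.2 CPM at day 21, Wfikkn2, a binder of growth differentiation factors, had 1.16 to 5.75 CPM at day 25 and 7.93 to 15.4 CPM at day 21, and Scg2, a granin of secretory granules, had 1.85 to 6.24 CPM at day 25 and 6.48 to 10.7 CPM at day 21. Rps13-ps2 is a processed pseudogene whose reads may come from its parent ribosomal gene, and it had 26.8 to 67.1 CPM at day 25 and 89.7 to 112 CPM at day 21.

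The day difference was set against the source of the cells. The interaction of source and day called 0 genes with limma, with 300 (2.10%) at an unadjusted p under 0.05, and its smallest adjusted p was 1. Among the largest differences, the log2 fold change of Gnat2 was -1.77 between the ESC libraries and -1.93 between the iPSC libraries, and that of Runx2 was -2.23 between the ESC libraries and -1.65 between the iPSC libraries. For Gnat1 it was 1.09 between the ESC libraries and 1.44 between the iPSC libraries. These genes do not overlap between the days, which fixes the sign in both sources, and each within-source difference has 1 library on one side.

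Levels at the other days show where days 21 and 25 lie, as a description with no test. Gnat1 was at 12.2 CPM in ESC and 104 CPM in iPSC at day 28, and at 139 and 248 CPM at day 35, and the ESC day 28 value alone lay inside the day 25 range. Pcdh15 was at 296 and 255 CPM at day 28 and at 119 and 316 CPM at day 35, and its day 25 values of 217 to 481 CPM overlapped with both days. Opn1sw was at 92 and 40.5 CPM at day 28 and at 3.09 and 4.2 CPM at day 35, below every day 21 and day 25 library at the later of these days. Rps23 was at 212 and 105 CPM at day 28 and at 69.8 and 69.5 CPM at day 35, and its ESC day 28 library was back among the day 21 values. At day 18, Pcdh15 ranged from 3.11 to 130.4 CPM over 5 libraries and overlapped with day 21.

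**Figure D5:**
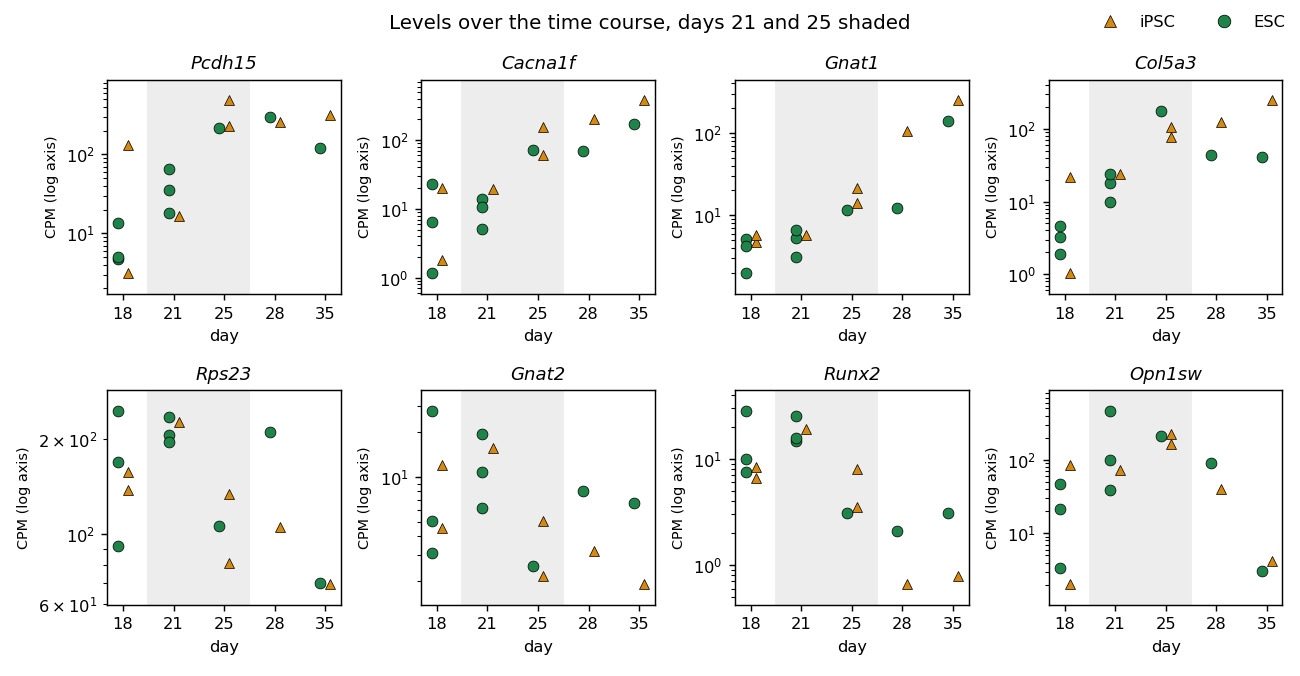
CPM on a log axis by day of differentiation for 8 genes in all 16 libraries, with circles for ESC, triangles for iPSC and days 21 and 25 shaded. Pcdh15, Cacna1f and Gnat1 at day 25 lie above every day 21 library, and Rps23, Gnat2 and Runx2 lie below.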

How the data were processed

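Sorted-cell polyA RNA-seq was quantified with kallisto 0.42.5 after Trimmomatic 0.36, on Ensembl cDNA (build GRCm38.p4), per the submitters' notes on processing and the design text. Per the design text, the authors summarised length-scaled gene counts with tximport and made CPM with edgeR. The deposited gene values, a score from -1 to 198.2, are a transform of CPM: 97.8% of 8688 testable genes had a constant ratio of 2 to the power of the square root of (value + 1), minus 1, to the deposited TPM (tolerance 0.01 on log2). The deposited estimated counts and TPM stop at 65535 transcripts, so their gene sums, complete for 10863 genes and rounded to whole numbers, served the count tests only. CPM columns sum to 709446 to 885155.

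Genes with at least 1 CPM in at least 2 of the 7 libraries were tested on log2(CPM + 1) with limma 3.58.1 (trend, source as covariate, R 4.3.3), with Benjamini-Hochberg adjustment over all 14253. Fold changes on this scale understate those of low genes. Alternatives were edgeR 4.0.16, DESeq2 1.42.0, other filters, scalings and pseudocounts, array weights, a replicate block, all 16 libraries, each source alone and each library left out. Fits were tested on simulated data. No 2 libraries agreed within sampling noise.

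Named genes were 13 landmarks, 12 largest differences each way (at least 5 CPM on average, no overlap, unadjusted p under 0.05 as none was called, no predicted models), and up to 4 members of each list at the smallest unadjusted p, or the 2 of highest level, plus markers that set what a list shows. A few genes that meet this rule are left out. The comparison, lists and genes were chosen with earlier results of these data known. Gene positions are from GENCODE M21.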

Additional observations from a re-analysis of the deposited data

Results flagged for a closer look

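In the 4 day 21 libraries, a gap between 1 library and the rest was compared with the critical share of the group's range, 0.829, for 107 gene levels and list means. Chance passes about 1 in 20 groups, and 15 passed. The lists hold some of the same genes, and many genes were chosen from these data. The number that passed therefore cannot be set against that rate. ESC day 21 replicate 3 was the highest in 10 of them and the lowest in 1.

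The genes at which ESC day 21 replicate 3 stood highest were Nrl (gap 0.839 of the range), Nr2e3 (0.885), Prph2 (0.832), Slc1a1 (0.854), Rdh12 (0.867) and Kcnj14 (0.936). The same library was highest in the mean log2 level of the lists for rod phototransduction (0.945), photoreceptor transcription factors (0.83), mitochondrial oxidative phosphorylation (0.883) and the unfolded protein response (0.926). It was lowest for Ptprt (0.884).

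ESC day 21 replicate 1 was the highest in the mean level of the retinoic acid list (0.864) and of the fibroblast and mesenchyme markers (0.901). ESC day 21 replicate 2 was the highest for Rbl2 (0.882). For Rp2, ESC day 21 replicate 2 stood highest (0.829). Each of these libraries was kept in its labelled group.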

How the results depend on the processing

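With 4 residual degrees of freedom and 1 to 3 libraries a group, differences of a gene below its interval were not detectable. The number of called genes was 0 under all alternatives run except DESeq2, which called 34. At an unadjusted p under 0.05, the genes higher and lower were 260 and 154 with edgeR, 318 and 209 with DESeq2, 310 and 346 over all 16 libraries, 755 and 584 without the source covariate, 800 and 520 with array weights, 512 and 190 within ESC, and 120 and 153 within iPSC. Leaving out 1 library gave 120 to 853 higher and 141 to 569 lower. The extremes came without ESC day 25 replicate 1 and without ESC day 21 replicate 3 for higher genes, and without iPSC day 25 replicate 2 and ESC day 21 replicate 3 for lower genes. For the interaction the count was 0 under each alternative that could be fitted. Rescaling CPM to the same sum moved the median of all genes to -0.06.

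With the replicate number as a block there were 879 higher, 642 lower and 0 called. Of the 7 libraries only ESC day 21 replicate 3 has that number. The list medians of the block fit therefore equal those without that library. Likewise, the list medians without iPSC day 21 equal those within ESC, so these fits are not separate checks of the fold changes. The labels do not say that the replicate numbers pair the samples. For the 2 pairs that share a number, the correlation of deviations was -0.34 and -0.15. ESC day 25 and iPSC day 21 have 1 library each, so these correlations cannot decide whether the numbers mark pairs.

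Of 1447 fold changes of 75 named genes under alternatives, 1416 kept direction and side of the threshold, 9 passed it with DESeq2, and 22 changed sign, in 7 genes. Arr3 turned to 0.17 over all 16 libraries, 0.19 without the covariate and 0.33 within ESC, and ran from -0.54 to 0.33 with a library left out. Cyp26a1 turned to -0.60 within ESC and ran from -0.60 to 1.38. Mki67 turned to 0.20 over all 16 libraries and ran from -0.66 to 0.26. The log2 fold change of Notch1 turned to 0.0261 with edgeR, 0.0257 with DESeq2 and 1.08 within ESC, and ran from -1.79 to 1.08. Within iPSC, which is also the fit without ESC day 25, Pcna turned to 0.081, Gap43 to 1.08 and Stmn2 to 1.11. With a library left out the lowest values were -0.34 for Pcna, -2.28 for Gap43 and -3.33 for Stmn2. The cause was not tested.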

Other observations

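Metabolic and stress genes showed small day differences beside the 3.60% of all genes higher and 2.20% lower at an unadjusted p under 0.05. Of 21 glycolysis genes, 18 had a log2 fold change above 0 (median 0.34), and Hk1, the hexokinase of photoreceptors and neurons, was the 1 with an unadjusted p under 0.05, at 189 to 323.5 CPM at day 25 and 66.8 to 263 CPM at day 21 (log2 fold change 1.15). The 24 oxidative phosphorylation genes had a median of 0.09, and 0 passed that p. Of 20 cholesterol synthesis genes, 17 were below 0 (median -0.33) and 1 had an unadjusted p under 0.05. That gene was Fdft1, squalene synthase, with 70.9 to 100 CPM at day 25 and 108 to 163 CPM at day 21 (log2 fold change -0.58). In 4 of the 20 every day 25 library was below every day 21 library, beside 5.28% of all genes. So it was in 4 of 14 unfolded protein response genes (median -0.21), of which 0 had an unadjusted p under 0.05. Their mean log2(CPM + 1) was 6.01 to 6.05 at day 25 and 6.13 to 6.39 at day 21, without overlap. Of 19 genes of the integrated stress response, 13 were below 0 (median -0.26), and 2 had an unadjusted p under 0.05, Mthfd2, an enzyme of mitochondrial folate metabolism (15 to 24.9 CPM at day 25 and 22.2 to 30.2 CPM at day 21), and Nupr1, a stress-induced nuclear protein (2.02 to 2.7 CPM at day 25 and 2.39 to 5.96 CPM at day 21).

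Marker lists of other cells were mixed. Above 0 were 8 of 16 Müller glia markers (median 0.02), 7 of 12 amacrine markers (0.06) and 3 of 4 microglia and blood markers (0.09). Below 0 were 17 of 19 horizontal and ganglion markers (median -0.61), 8 of 9 pigment epithelium markers (-0.38) and 8 of 9 forebrain markers (-0.29). These lists with most members below 0 had 1, 1 and 0 at an unadjusted p under 0.05. Their medians were 0.02, -0.02 and 0.19 without ESC day 21 replicate 1, and 0.09, 0.455 and 0.76 without ESC day 25. Their part in the rod gene differences was not tested. Lhx1, a factor of horizontal cells, had 0.242 to 2.105 CPM at day 25 and 1.25 to 8.485 CPM at day 21 (log2 fold change -1.81). Dct, a melanin enzyme of pigment epithelium, had 19 to 40.04 CPM at day 25 and 32.1 to 114 CPM at day 21, and Car14, a carbonic anhydrase of Müller glia and pigment epithelium, had 7.98 to 11.1 CPM at day 25 and 13.3 to 18.85 CPM at day 21. Prkca, the protein kinase that marks rod bipolar cells, was above in every day 25 library, with 32.4 to 56.7 CPM at day 25 and 24.3 to 31.45 CPM at day 21 (log2 fold change 0.69). It was the 1 of 12 bipolar markers tested with an unadjusted p under 0.05, and the list median was -0.44.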
